A study of Mus musculus with 2 samples.

Results

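The 10 genes described here supply 3 activated donors to the Golgi apparatus, where glycans are fucosylated, sialylated and sulfated. They were taken by symbol from the gene list of both libraries, which names 32285 genes, and all 10 were found: Gmds, Tsta3 and Slc35c1 for GDP-fucose, Gne, Nans, Cmas and Slc35a1 for CMP-sialic acid, and Papss1, Papss2 and Slc35b2 for PAPS, the sulfate donor. Sugar nucleotides and PAPS are made in the cytosol, or for CMP-sialic acid in the nucleus, and reach the Golgi lumen through dedicated exchangers of the SLC35 family. High endothelial cells, the cuboidal cells of the venules through which blood lymphocytes enter a node, use all 3 donors to build sulfated sialyl Lewis X glycans on mucin-like proteins, the ligands of L-selectin. Lymphatic and capillary endothelial cells use the same donors for other glycans, heparan sulfate among them.

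Endothelial cells had been sorted from lymph nodes of mice labelled WT or Xbp1-KO, all of which received tamoxifen, the compound that activates inducible Cre recombinases. The labels give neither the Cre line, the cell types it acts in, the age nor the number of mice, and the protocol pools peripheral nodes before digestion and describes no digestion of mesenteric ones. The labels do not say whether the 2 libraries hold separate mice, but the sex-linked transcripts given below differ between the 2 pools of every group, which therefore came from different mice. How many mice each pool holds is not stated. P-values measure the spread between the 2 pools of a group, shared over the groups of a fit. These pools also differ in library and in sex-linked transcripts. Where classes are compared, the main fit treats the sums of 1 pool as independent. Peripheral and mesenteric nodes of both genotypes were marked with 4 hashtag oligonucleotides and run together in each of 2 droplet libraries, so every group of tissue and genotype has n = 2 pools, 1 per library. XBP1 drives part of the transcriptional response to unfolded proteins, and the study's title places it, with CREB3L factors, in the making of mucins by high endothelial and goblet cells.

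Libraries 1 and 2 held 7709 and 2903 barcodes with 33024170 and 14744778 gene UMIs (unique molecular identifiers, which count captured RNA molecules), and they shared 3 barcodes. Levels are given as CPM, the UMIs of a gene per 1000000 gene UMIs of a sum. After filtering, 9275 cells were used, of which 441 were high endothelial-like, 4172 other blood endothelial (capillary-, tip-, arterial- and venous-like), 3703 lymphatic and 703 of a blood endothelial cluster that could not be named. The high endothelial marker list summed to 16654 to 234273 CPM in high endothelial-like sums, against 1448 to 7010 in lymphatic and 641 to 1380 in other blood sums, and the lymphatic list to 2305 to 3549 CPM in lymphatic sums against at most 96.7 in the other classes. Ptprc, the defining gene of blood cells, had 0 UMIs in all high endothelial-like and other blood sums and at most 1 in a lymphatic sum. The sum of other blood cells from Xbp1-KO mesenteric nodes in library 1 held 2654 CPM of the blood-cell list, against at most 11.9 in the other 7 sums of that class. Ddx3y, a Y-linked gene, had a UMI in 22.6% and 27.7% of WT cells (mesenteric, peripheral) in library 1, in 31.9% and 31.8% of Xbp1-KO cells in library 2, and in at most 0.349% of cells of each of the other 4 pools. Xist, expressed from the inactive X chromosome, had a UMI in 73.1% to 85.4% of cells of those 4 pools and in at most 1.77% of cells of the first 4. Within each library, genotype and these transcripts therefore cannot be told apart, and their pairing is opposite in the 2 libraries. Xbp1 itself stood at 293 and 270 CPM in WT peripheral, 506 and 418 in WT mesenteric, 216 and 225 in Xbp1-KO peripheral and 224 and 330 in Xbp1-KO mesenteric high endothelial-like sums (library 1, then 2). It was lower in every Xbp1-KO sum than in the WT sum of the same tissue and library, here and in the other 2 classes, and transcripts remained in all of them. These are 3′ counts, and a deletion elsewhere in the gene need not remove them.

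All 10 genes are protein-coding, and coordinates are from GENCODE M21 on GRCm38. For GDP-fucose, Gmds (ENSMUSG00000038372; chromosome 13, 31819579 to 32338740, minus strand) encodes the GDP-mannose dehydratase that opens the pathway. Tsta3 (ENSMUSG00000022570; chromosome 15, 75924676 to 75929832, minus), also called Gfus, encodes the epimerase and reductase that completes it. Slc35c1 (ENSMUSG00000049922; chromosome 2, 92452764 to 92460538, minus) carries GDP-fucose into the Golgi. For CMP-sialic acid, Gne (ENSMUSG00000028479; chromosome 4, 44034075 to 44084177, minus) encodes the rate-limiting enzyme. Nans (ENSMUSG00000028334; chromosome 4, 46489248 to 46503632, plus) encodes the sialic acid 9-phosphate synthase, Cmas (ENSMUSG00000030282; chromosome 6, 142756686 to 142775714, plus) the enzyme that couples sialic acid to CMP, and Slc35a1 (ENSMUSG00000028293; chromosome 4, 34663257 to 34687438, minus) its Golgi carrier. For PAPS, Papss1 (ENSMUSG00000028032; chromosome 3, 131564768 to 131643671, plus) and Papss2 (ENSMUSG00000024899; chromosome 19, 32595790 to 32667187, plus) encode alternative synthases, each of which joins sulfate to ATP and phosphorylates the product. Slc35b2 (ENSMUSG00000037089; chromosome 17, 45563874 to 45567671, plus) carries PAPS into the Golgi. Exons of Nans overlap those of Trim14 on the opposite strand, and since the use of strand in counting is not given in the sources used here, the values of Nans are uncertain to that extent.

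The promoters of 6 start sites are printed because Gmds, Gne and Papss2 passed below between high endothelial-like and other blood cells in Xbp1-KO, because Cmas and Slc35b2 passed between lymphatic and other blood cells in both genotypes, and because the mice differ in a transcription factor with known DNA motifs. Each window is 300 bases long and spans an annotated start, from RefSeq on GRCm38.p6. In capitals are CCACG, a part of the ER stress response element to which ATF6 and XBP1 bind, and ACGTG, the core of the unfolded protein response element, each searched on both strands (as CGTGG and as CACGT on the other).
Gmds (chr13:32338495-32338794, minus strand, 5′ to 3′): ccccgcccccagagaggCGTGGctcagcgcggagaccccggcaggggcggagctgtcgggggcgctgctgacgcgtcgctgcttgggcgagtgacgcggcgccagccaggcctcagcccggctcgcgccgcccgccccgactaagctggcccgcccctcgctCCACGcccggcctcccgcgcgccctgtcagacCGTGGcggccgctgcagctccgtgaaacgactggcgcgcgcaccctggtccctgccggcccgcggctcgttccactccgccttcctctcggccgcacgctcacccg
Gne, first start (chr4:44084128-44084427, minus strand, 5′ to 3′): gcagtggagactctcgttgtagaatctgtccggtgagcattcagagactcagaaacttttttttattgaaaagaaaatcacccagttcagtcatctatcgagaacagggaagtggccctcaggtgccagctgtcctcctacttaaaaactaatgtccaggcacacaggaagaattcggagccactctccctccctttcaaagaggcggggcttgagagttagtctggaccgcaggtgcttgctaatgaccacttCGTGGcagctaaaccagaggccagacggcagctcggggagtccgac
Gne, second start (chr4:44072668-44072967, minus strand, 5′ to 3′): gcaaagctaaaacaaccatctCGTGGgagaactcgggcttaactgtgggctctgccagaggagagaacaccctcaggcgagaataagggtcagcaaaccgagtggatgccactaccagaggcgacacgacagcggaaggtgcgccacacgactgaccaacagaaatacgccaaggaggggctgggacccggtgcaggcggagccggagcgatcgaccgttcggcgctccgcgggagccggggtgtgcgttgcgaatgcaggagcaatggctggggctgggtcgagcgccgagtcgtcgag
Papss2, first start (chr19:32595465-32595764, plus strand, 5′ to 3′): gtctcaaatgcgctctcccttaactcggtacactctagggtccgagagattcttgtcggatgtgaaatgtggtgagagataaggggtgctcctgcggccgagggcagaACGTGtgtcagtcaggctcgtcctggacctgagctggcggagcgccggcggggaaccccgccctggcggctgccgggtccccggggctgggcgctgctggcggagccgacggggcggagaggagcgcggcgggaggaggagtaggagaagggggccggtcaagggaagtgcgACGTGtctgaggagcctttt
Cmas (chr6:142756436-142756735, plus strand, 5′ to 3′): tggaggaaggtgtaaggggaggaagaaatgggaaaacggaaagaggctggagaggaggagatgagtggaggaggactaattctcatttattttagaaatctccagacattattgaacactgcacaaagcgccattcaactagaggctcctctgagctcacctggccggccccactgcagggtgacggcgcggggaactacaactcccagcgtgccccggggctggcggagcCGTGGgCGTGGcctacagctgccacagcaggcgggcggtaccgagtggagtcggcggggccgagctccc
Slc35b2 (chr17:45563686-45563985, plus strand, 5′ to 3′): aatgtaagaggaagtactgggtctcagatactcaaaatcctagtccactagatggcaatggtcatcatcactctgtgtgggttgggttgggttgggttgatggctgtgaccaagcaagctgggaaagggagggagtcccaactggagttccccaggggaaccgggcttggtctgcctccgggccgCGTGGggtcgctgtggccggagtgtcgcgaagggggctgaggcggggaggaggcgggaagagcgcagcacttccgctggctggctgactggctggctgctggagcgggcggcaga
Of the 12 windows that RefSeq gives for 8 of the genes, 8 held CCACG on either strand, against 32.8% of all 32851 mouse windows of this length, and 3 held ACGTG, against 19.6%. The 2 motifs share letters where they abut as CCACGTG. The Papss2 window printed above held ACGTG and no CCACG, while those of Gmds, Gne, Cmas and Slc35b2 held CCACG and no ACGTG. None of the 12 windows held TGACGTGG, which contains the second motif and is found in 0.676% of all windows. None held the cyclic AMP response element (1.79% of all windows) or the whole ER stress response element, which contains the first motif (0.119%). Base composition differed as well, with a median G and C content of 60.7% in the 12 windows and 52.7% in all. No window is in the table for Nans or for Tsta3.

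Levels were first set out over 14 endothelial subsets, in each library. Each value adds the UMIs of all pools of a library, so subsets differ in their mix of tissues and genotypes. A subset was placed apart from the next lower one when both of its library values lay above both values of that neighbour. CPM of different genes are not compared, since a 3′ count depends on how well each transcript is captured.

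**Figure D1:**
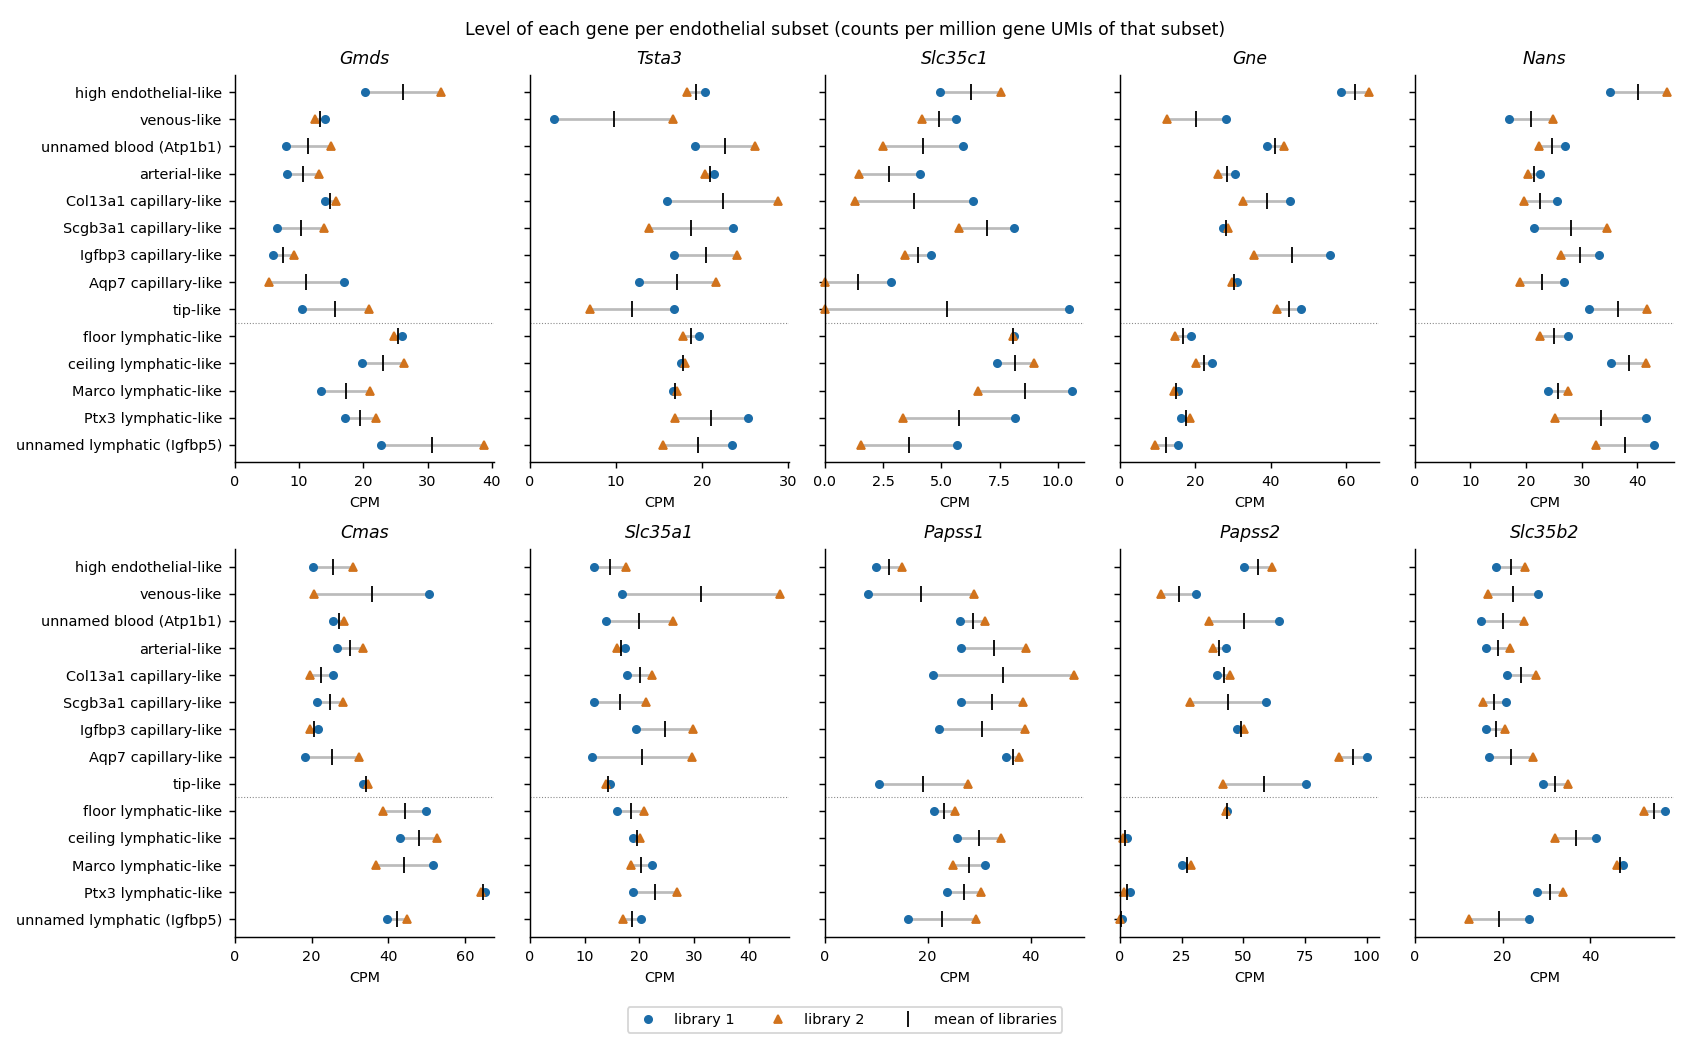
Level of each gene (CPM, horizontal axis, scale differing between panels) in 14 endothelial subsets (vertical axis), with 1 point per library and a tick at their mean. Gne stands highest in high endothelial-like cells at 62.3 CPM, and Papss2 splits the lymphatic subsets below the dotted line into floor- and Marco-like cells against the other 3.

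Within the GDP-fucose branch, Gmds had its highest means in the unnamed Igfbp5 lymphatic subset (30.7 CPM), high endothelial-like cells (20.3 and 32.1 CPM in libraries 1 and 2, mean 26.2 ± 8.3 SD, n = 2) and floor lymphatic-like cells (25.4 ± 0.94). The lowest mean was 7.53 ± 2.3 CPM, in Igfbp3 capillary-like cells. No 2 neighbours among the 14 were apart for Gmds, so its order is a gradient with 4.08-fold between its ends. Tsta3 was even flatter, from 9.72 ± 9.8 CPM in venous-like cells, a subset of 127 cells with 5 Tsta3 UMIs, to 22.6 ± 4.9 in the unnamed blood cluster. Slc35c1 was the most thinly counted member, with 2 to 57 UMIs per subset. Its means ran from 1.41 ± 2.0 CPM in Aqp7 capillary-like to 8.59 ± 2.8 in Marco lymphatic-like cells, again with no neighbours apart.

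In the sialic acid branch the entry enzyme Gne had a clear order. High endothelial-like cells led with 58.6 and 66.0 CPM (mean 62.3 ± 5.2), apart from Igfbp3 capillary-like (45.7 ± 14) and tip-like cells (44.9 ± 4.5), which followed. Most UMIs of the high endothelial-like subset were mesenteric. Its peripheral sums held Gne at 30.8 and 35.2 CPM in WT and 65.8 and 17.3 in Xbp1-KO, on 1 to 18 UMIs. All 5 lymphatic subsets lay between 12.3 ± 4.3 and 22.3 ± 2.9 CPM, below every blood subset except the venous-like one at 20.3 ± 11. Cmas ran the other way: Ptx3 lymphatic-like cells were highest at 64.7 ± 0.88 CPM, the other 4 lymphatic subsets stood at 42.3 to 48.0, and Igfbp3 capillary-like cells were lowest at 20.6 ± 1.6. Nans was highest in high endothelial-like cells at 40.2 ± 7.1 CPM, close to ceiling lymphatic-like cells at 38.4 ± 4.4, and no neighbours were apart. Slc35a1, the Golgi carrier, was not ordered by its means beyond their spread either, from 14.3 ± 0.51 CPM in tip-like to 31.3 ± 20 in venous-like cells.

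The PAPS branch held the widest contrast. Papss2 was highest in Aqp7 capillary-like cells (100.1 and 89.0 CPM, mean 94.6 ± 7.9), apart from all other subsets. Over the 8 pools its level in these cells ran from 67.0 to 129 CPM, on 5 to 26 UMIs each. High endothelial-like cells followed among the blood subsets at 56.0 ± 7.9 CPM, beside tip-like cells at 58.5 ± 24. At the low end, 1 Papss2 UMI was counted in the 466 cells of the Igfbp5 lymphatic subset. Papss1, the other synthase, had its lowest level in high endothelial-like cells (9.92 and 15.1 CPM, mean 12.5 ± 3.7) and its highest in Aqp7 capillary-like cells (36.5 ± 1.8). The carrier Slc35b2 was highest in floor lymphatic-like cells (54.5 ± 3.4 CPM), apart from Marco lymphatic-like cells (46.7 ± 0.91), which were in turn apart from ceiling lymphatic-like cells (36.7 ± 6.6). Every blood subset except the tip-like one had a mean of Slc35b2 under 25 CPM.

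To test classes against each other, UMIs were summed per pool for high endothelial-like, other blood and lymphatic cells (24 sums, 10670 genes tested in edgeR). The study's interest in mucin-making cells puts high endothelial-like against other blood cells first. Peripheral high endothelial-like sums rest on 9 to 37 cells, and in the smallest, of 57854 UMIs, a count of 0 allows up to 51.9 CPM. Mesenteric sums hold 54 to 128 cells. Averaged over both tissues, the median difference of all genes was −0.30 on the log2 scale in WT and −0.17 in Xbp1-KO, while in mesenteric sums alone it was −0.02 and −0.03. The mesenteric values, a choice made after seeing the data, are therefore given beside those of both tissues. For Papss1, Tsta3, Cmas, Slc35a1, Slc35b2 and Slc35c1 those of each library alone are given.

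**Figure D2:**
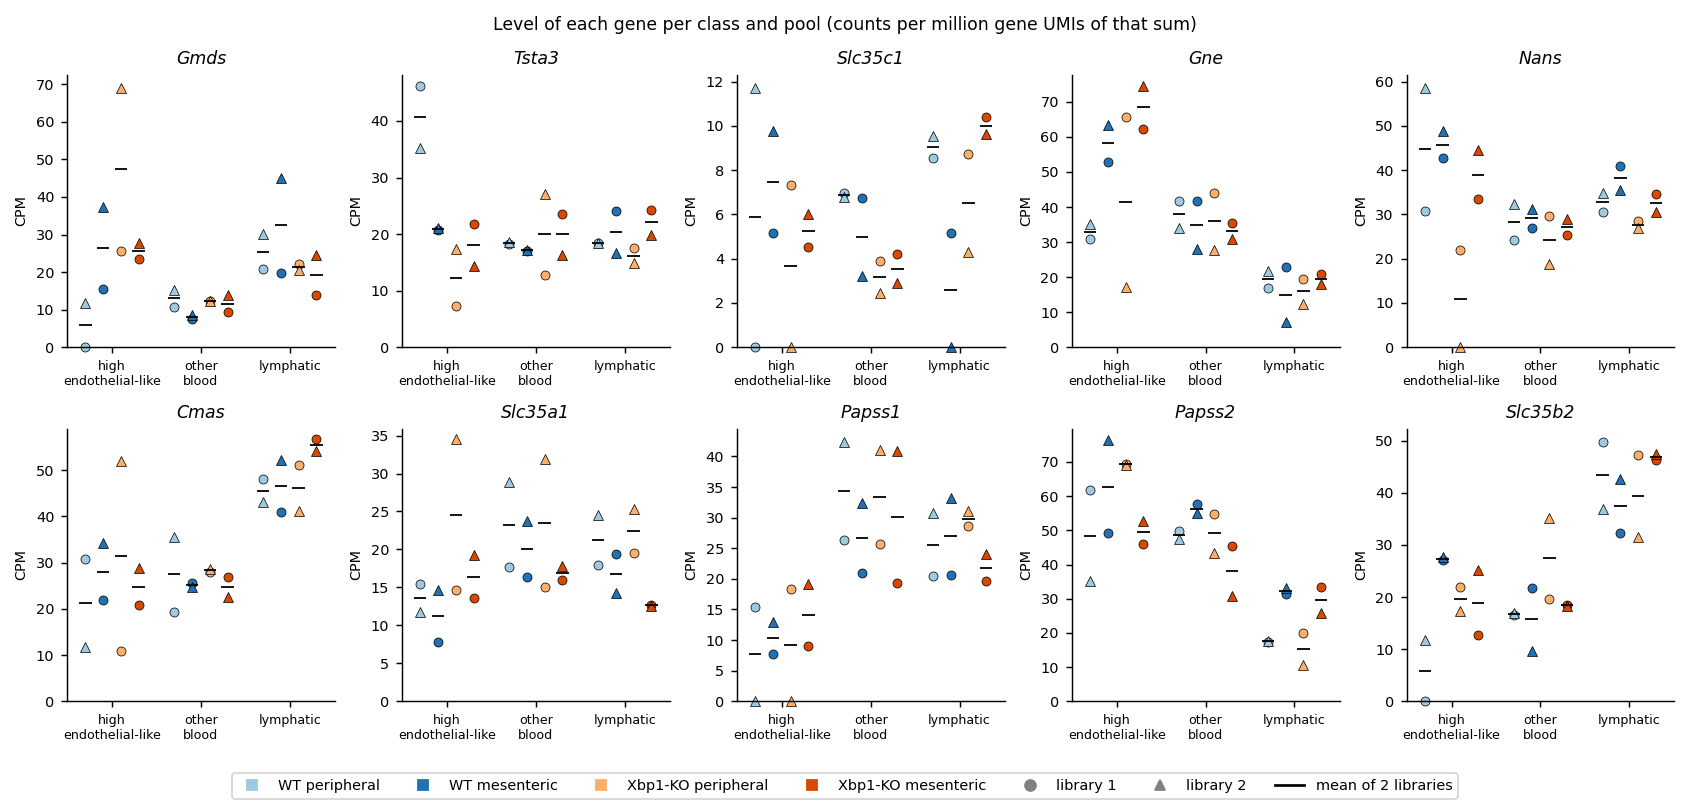
Level of each gene (CPM, vertical axis, scale differing between panels) in the 3 classes, by pool (colour) and library (circle 1, triangle 2), with a line at the mean of both libraries. Peripheral high endothelial-like sums scatter widely (Gmds 0 to 69.1 CPM), and Papss1 in high endothelial-like sums stays below 20 CPM.

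Gmds was higher in high endothelial-like cells. In mesenteric sums its level was 15.5 and 37.4 CPM in WT and 23.5 and 27.6 in Xbp1-KO, against 7.47 and 8.62 in WT and 9.27 and 14.0 in Xbp1-KO other blood cells. The groups did not overlap, and the difference was 2.04 ± 0.46 log2 (SE; 4.10-fold, adjusted p = 0.00216, edgeR) in WT and 1.38 ± 0.41 (2.61-fold, adjusted p = 0.0161) in Xbp1-KO. With peripheral sums included the difference was 1.64 ± 0.39 (adjusted p = 0.0030) in Xbp1-KO but 0.65 ± 0.94 (adjusted p = 0.721) in WT, where the peripheral sums held 0 and 1 Gmds UMIs. In library 1 alone the WT value over both tissues was −3.11, and in library 2 alone 1.21.

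Gne followed the same line. Mesenteric high endothelial-like sums had 53.0 and 63.4 CPM in WT and 62.4 and 74.4 in Xbp1-KO, against 41.6 and 28.0, and 35.4 and 30.8, in other blood cells. Every high endothelial-like value lay above every other blood value. The difference had an interval of 2 SE from 0.35 to 1.65 log2 in WT (SE 0.33, adjusted p = 0.0335, edgeR) and 1.37 ± 0.31 in Xbp1-KO (2.58-fold, adjusted p = 0.00203). Over both tissues it was 0.44 ± 0.44 (adjusted p = 0.587; 0.08 in library 1 alone, 0.96 in library 2 alone) in WT and 1.20 ± 0.30 (adjusted p = 0.00397) in Xbp1-KO.

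Nans, the enzyme after Gne, had 42.6 and 48.8 CPM in WT and 33.4 and 44.4 in Xbp1-KO mesenteric high endothelial-like sums, against 25.3 to 31.3 in the 4 other blood sums. These groups also did not overlap, with differences of 1.01 ± 0.28 log2 in WT (adjusted p = 0.0121, edgeR) and 0.80 ± 0.27 in Xbp1-KO (adjusted p = 0.0402). Over both tissues Nans did not pass, at 0.96 ± 0.34 in WT (adjusted p = 0.0589) and 0.39 ± 0.34 in Xbp1-KO (0.51 in library 1 alone, −3.24 in library 2 alone). Counted together, 3 of 10 members were higher and 0 lower in mesenteric sums of either genotype, while 16.7% of all genes were called in WT and 18.6% in Xbp1-KO. Averaged over both tissues, 0 of 10 members passed in WT, where 14.6% of all genes were called and 3 members had an unadjusted p under 0.05. In Xbp1-KO 3 passed against 19.8% of all genes: Gmds, Gne and Papss2 (0.82 ± 0.24, 1.76-fold, adjusted p = 0.0164, edgeR). In mesenteric sums alone Papss2 did not pass (0.72 ± 0.28, adjusted p = 0.0758, and 0.0245 with the pool as a block). The difference between genotypes in this contrast passed for 0 of 10 members and 0% of all genes, over both tissues and in mesenteric sums, and its size for Papss2 was 0.56 ± 0.39. Library 2, which lacks the sum with blood-cell transcripts, gave 1.16 for Gmds, 1.45 for Gne and 0.80 for Nans in Xbp1-KO mesenteric sums, and library 1 gave 1.78, 1.26 and 0.84. In WT mesenteric sums the values of library 1 and 2 were 1.36 and 2.50 for Gmds, 0.66 and 1.57 for Gne and 0.97 and 1.04 for Nans. Over both tissues, Gne in Xbp1-KO was 1.22 in library 1 alone and 0.32 in library 2 alone. Of 14 dissociation-response genes 1 was higher and 10 were lower in high endothelial-like than in other blood sums in WT (median −1.01), and 1 and 11 in Xbp1-KO (median −0.98). In mesenteric sums 1 was higher and 4 were lower in WT (median −0.79), and 1 and 9 in Xbp1-KO (median −1.02). The part of these genes in the differences was not tested.

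Papss1 had the opposite direction. Its level was at most 19.2 CPM in the 8 high endothelial-like sums (median 11.0, 2 sums at 0) and at least 19.4 in the 8 other blood sums (median 29.3, highest 42.4), so it was lower in 8 of 8 pools. The planned contrasts did not pass, with −1.54 ± 0.69 log2 in WT (adjusted p = 0.152, edgeR) and −0.79 ± 0.43 in Xbp1-KO (adjusted p = 0.220). The Wald SE of the WT value was 0.91. Library 1 alone gave −0.97 in WT and −0.27 in Xbp1-KO, and library 2 alone −4.66 and −4.65. In mesenteric sums library 1 alone gave −1.12 in WT and −0.66 in Xbp1-KO, and library 2 alone −0.91 and −0.91. With the pool as a block, the WT difference was −1.62 ± 0.58 (adjusted p = 0.0395). Averaged over all 4 groups, a contrast added after seeing the data in which 27.9% of all genes were called, 3 members passed: Papss1 at −1.17 ± 0.40 (Wald SE 0.51, adjusted p = 0.0316), Gne at 0.82 ± 0.28 and Nans at 0.67 ± 0.24. In that contrast library 1 alone gave −0.62 for Papss1 and library 2 alone −4.66, where both peripheral high endothelial-like sums held 0 UMIs. Nans gave 0.57 in library 1 alone and −1.07 in library 2 alone, where 1 peripheral sum held 0.

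**Figure D3:**
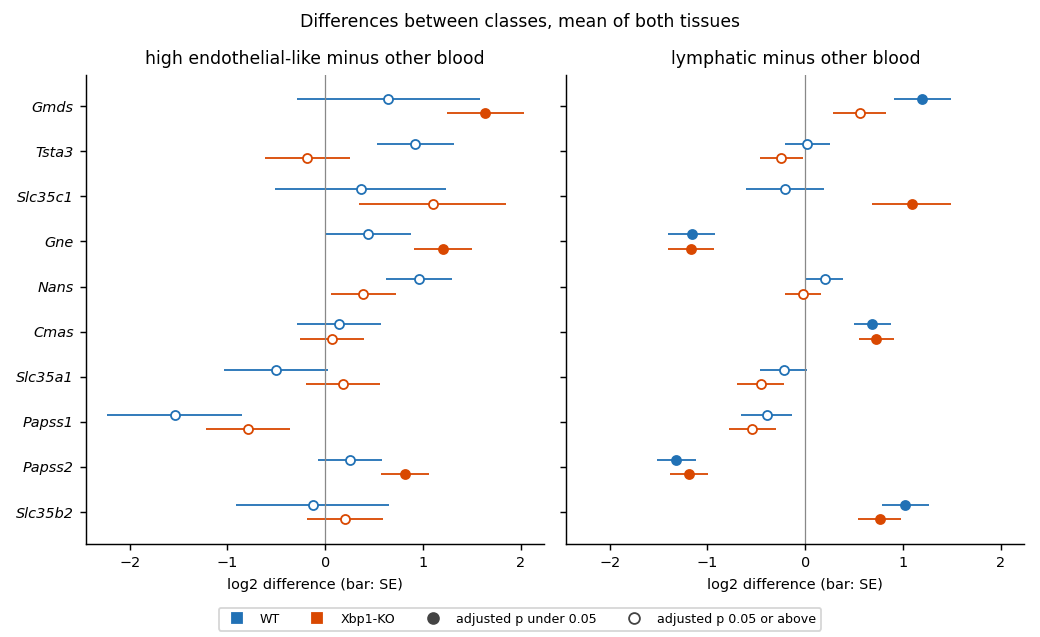
Difference on the log2 scale (horizontal axis, bars 1 SE) of each gene between high endothelial-like and other blood sums and between lymphatic and other blood sums, averaged over both tissues, in WT and Xbp1-KO. Filled points have an adjusted p under 0.05, and Gne and Papss2 lie on opposite sides of 0 in the 2 panels for Xbp1-KO.

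For the remaining 5 members the high endothelial-like contrast with other blood cells did not pass in either genotype. Tsta3 showed 0.92 ± 0.39 in WT and −0.18 ± 0.44 in Xbp1-KO, Cmas 0.14 ± 0.43 and 0.07 ± 0.33, Slc35a1 −0.51 ± 0.53 and 0.18 ± 0.38, Slc35b2 −0.13 ± 0.78 and 0.21 ± 0.39, and Slc35c1 0.36 ± 0.88 and 1.10 ± 0.75. For Slc35b2 in WT an interval of 2 SE ran from −1.69 to 1.43, and library 1 alone gave −3.79 and library 2 alone 0.83. Slc35c1 turned sign in 1 library in each genotype, with −3.52 and 1.51 in WT and 1.02 and −1.60 in Xbp1-KO (library 1, then 2). Its −3.52 and −1.60 each rest on a peripheral high endothelial-like sum of 0 UMIs. So did Cmas turn, with 0.35 and −0.22 in WT and −0.34 and 0.62 in Xbp1-KO. In Xbp1-KO Slc35b2 gave 0.33 and −0.26, and Tsta3 0.06 and −0.39. Mesenteric sums gave, in WT, −0.08 and 1.95 for Slc35c1, 0.09 and 0.86 for Cmas, −0.76 and −0.30 for Slc35a1 and 0.59 and 0.69 for Tsta3. In Xbp1-KO they gave 0.54 and 1.20, 0.07 and 0.53, 0.20 and 0.29, and 0.32 and −0.0047, and −0.11 and 0.64 for Slc35b2. With the pool as a block, Slc35b2 in WT mesenteric sums passed at 0.96 ± 0.36 (adjusted p = 0.0425, edgeR), where the levels were 27.1 and 27.7 CPM against 21.7 and 9.70 (library 1 alone 0.63, library 2 alone 1.90).

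Lymphatic cells differed from other blood cells in 5 of 10 members in each genotype, in mixed directions, while 38.5% of all genes were called in WT and 42.7% in Xbp1-KO. The members' share was thus near that of all genes. Cmas was higher, at 41.0 to 56.7 CPM in the 8 lymphatic sums against 19.3 to 35.6 in the other blood sums, and the classes did not overlap. Its difference was 0.69 ± 0.19 log2 in WT (adjusted p = 0.0045, edgeR) and 0.73 ± 0.18 in Xbp1-KO (adjusted p = 0.00128). Slc35b2 was higher by 1.02 ± 0.24 in WT (2.03-fold, adjusted p = 0.0011) and 0.76 ± 0.22 in Xbp1-KO (0.45 in library 2 alone, 1.07 in library 1 alone), from a median of 18.4 CPM to 44.5. In Xbp1-KO it was higher in 3 of 4 pools, and the peripheral pool of library 2 had 31.6 CPM against 35.3 in other blood cells. Gmds was higher in 8 of 8 pools and passed in WT alone, at 1.20 ± 0.29 (adjusted p = 0.00143) against 0.56 ± 0.27 in Xbp1-KO (adjusted p = 0.0998, and 0.0384 with the pool as a block). Slc35c1 passed in Xbp1-KO, at 1.09 ± 0.40 (adjusted p = 0.0300), and not in WT, where it was −0.21 ± 0.40, and the genotype difference, 1.29 ± 0.57, did not pass. The WT mesenteric lymphatic sum of library 2 held 0 Slc35c1 UMIs, and this library alone gave −2.19 in WT and 3.27 for the genotype difference, against −0.23 and 1.22 in library 1 alone. In mesenteric sums alone 3 members passed in each genotype, against 25.3% of all genes in WT and 28.1% in Xbp1-KO. Lost there were Cmas and Slc35b2 in WT (adjusted p = 0.0673 and 0.0723) and Slc35c1 and Papss2 in Xbp1-KO (0.0967 and 0.173).

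Gne and Papss2 were lower in lymphatic cells. Gne lay between 7.12 and 22.9 CPM in lymphatic and between 27.9 and 44.1 in other blood sums, without overlap, a difference of −1.16 ± 0.24 log2 in WT (adjusted p = 0.000285, edgeR) and −1.17 ± 0.24 in Xbp1-KO. Papss2 lay between 10.5 and 33.5 CPM in lymphatic sums (median 22.9) and between 30.8 and 57.6 in other blood sums (median 48.7). It differed by −1.32 ± 0.20 in WT (2.49-fold lower, adjusted p = 4.23e-06) and −1.19 ± 0.20 in Xbp1-KO (adjusted p = 1.27e-05), and it was lower in all 8 pools. High endothelial-like cells exceeded lymphatic cells in both genes in WT, with 21.1% of all genes called: Gne by 1.60 ± 0.52 (adjusted p = 0.0283, but 0.109 under the ratio rule for hashtags and 0.106 at a clustering resolution of 1.5) and Papss2 by 1.57 ± 0.39 (adjusted p = 0.00401). In mesenteric sums the same 2 passed, against 20.5% of all genes, at 2.05 ± 0.37 and 1.42 ± 0.30. For Gne library 1 alone gave 1.35 over both tissues and 1.67 in mesenteric sums, and library 2 alone 2.35 and 3.61. No difference of the lymphatic contrast between genotypes passed for any of the 10 members or any other gene. With the pool as a block, Papss1 was also lower in Xbp1-KO lymphatic cells than in other blood cells, at −0.53 ± 0.19 (adjusted p = 0.0135). Its CPM was however higher in lymphatic sums in 2 of 4 Xbp1-KO pools. Library 1 alone gave −0.14 and library 2 alone −0.74. Size factors in place of TMM moved the median of all genes in the lymphatic contrast by about 0.1 log2 (to 0.10 in WT and 0.12 in Xbp1-KO), which turned none of these directions. The dissociation-response list had 0 higher and 6 lower in WT and 0 and 10 in Xbp1-KO lymphatic sums, and its part was not tested.

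Neighbouring steps of the same pathways were counted from a list of 43 further genes, of which 37 were tested here. High endothelial-like cells had 4 higher and 0 lower than other blood cells in WT, with a median of 0.22 log2 over the 37 against −0.30 over all genes, of which 14.6% were called. These were Gfpt1, the rate-limiting enzyme of UDP-GlcNAc synthesis (1.95 ± 0.37), Gmppb, which makes the GDP-mannose that Gmds uses (1.87 ± 0.44), Uap1l1 (1.71 ± 0.57) and the plasma membrane sulfate transporter Slc26a2 (1.65 ± 0.32). In Xbp1-KO 6 were higher, with Gfpt1 at 2.18 ± 0.28 and Slc26a2 at 1.67 ± 0.27 among them, and 1 was lower, Gnpda2 at −0.98 ± 0.28, against 19.8% of all genes called. In lymphatic cells 10 of 37 were higher and 2 lower in WT and 11 and 2 in Xbp1-KO, against 38.5% and 42.7% of all genes called. Except for Xbp1-KO high endothelial-like cells, where 7 of 37 passed, near the share of all genes, the list's share was below that of all genes. Uxs1, which makes UDP-xylose for proteoglycan linkage, led with 3.00 ± 0.20 and 3.05 ± 0.20, and Uap1 was lower, at −0.91 ± 0.22 and −0.81 ± 0.21.

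Enzymes that consume the donors came from a list of 21 genes, of which 19 were tested. High endothelial-like cells had 5 higher and 3 lower in WT and 5 and 4 in Xbp1-KO, against 14.6% and 19.8% of all genes called. The fucosyltransferase Fut7 (5.71 ± 0.30 in WT) and the sulfotransferase Chst4 were among the 5, and both served as markers of the class, so this is no finding. Chst4 was at or near 0 UMIs in other blood sums, so its fitted value sets no size. Of those not used as markers, the sulfotransferase Chst1 was higher (3.33 ± 0.42 in Xbp1-KO) and the tyrosine sulfotransferase Tpst1 lower (−3.21 ± 0.43 in Xbp1-KO). In lymphatic cells 3 were higher and 7 lower in both genotypes, against 38.5% and 42.7% of all genes called, with Chst1 (2.17 ± 0.32 in WT) higher and Fut8 (−2.83 ± 0.23) lower.

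Papss2 in lymphatic cells was not even. Floor lymphatic-like cells, the Coch- and Ccl20-bearing cells lining the inner wall of the subcapsular sinus, held 305 Papss2 UMIs, or 43.3 CPM (exact 95% Poisson interval 38.6 to 48.5, counting error only). Marco lymphatic-like cells, of the medullary sinuses, held 93 UMIs or 25.9 CPM (20.9 to 31.7). The other 3 lymphatic subsets together held 21 UMIs in 9416074, or 2.23 CPM (1.38 to 3.41), 19.4-fold below floor-like cells. By pool, floor-like cells ranged from 29.0 to 93.6 CPM and the other 3 subsets from 0 to 3.28 over the 8 pools. Capillary-like blood subsets other than the Aqp7 one stood at 42.0 to 49.0 CPM, beside the floor-like level. Marco-like cells ranged widely, from 4.60 to 60.6 CPM by pool on 1 to 27 UMIs. Their WT mesenteric pools, at 51.6 and 60.6 CPM, were at the level of the capillary-like subsets, and in WT peripheral nodes of library 2 they stood at 55.7 CPM against 45.4 in floor-like cells.

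Between tissues, Papss2 was the 1 member that passed. In lymphatic sums it stood at 31.5 and 33.2 CPM in WT and 33.5 and 25.8 in Xbp1-KO mesenteric nodes, against 17.3 and 17.7 in WT and 20.0 and 10.5 in Xbp1-KO peripheral nodes. Every mesenteric value lay above every peripheral one. The mean difference of both genotypes was 0.92 ± 0.20 log2 (1.89-fold, adjusted p = 0.0171, edgeR), higher in 4 of 4 pairs of the same genotype and library, while 4.97% of all genes were called. WT alone gave 0.95 ± 0.29 (adjusted p = 0.165, 0.909% of all genes called), and with the library as a block 0.92 ± 0.26 (adjusted p = 0.0424). For the mean of genotypes library 1 alone gave 0.89 and library 2 alone 1.16. Thinned to the smallest sum it was 0.84 (adjusted p = 0.265). In a sum over cells, fewer expressing cells and less RNA per cell cannot be told apart.

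**Figure D4:**
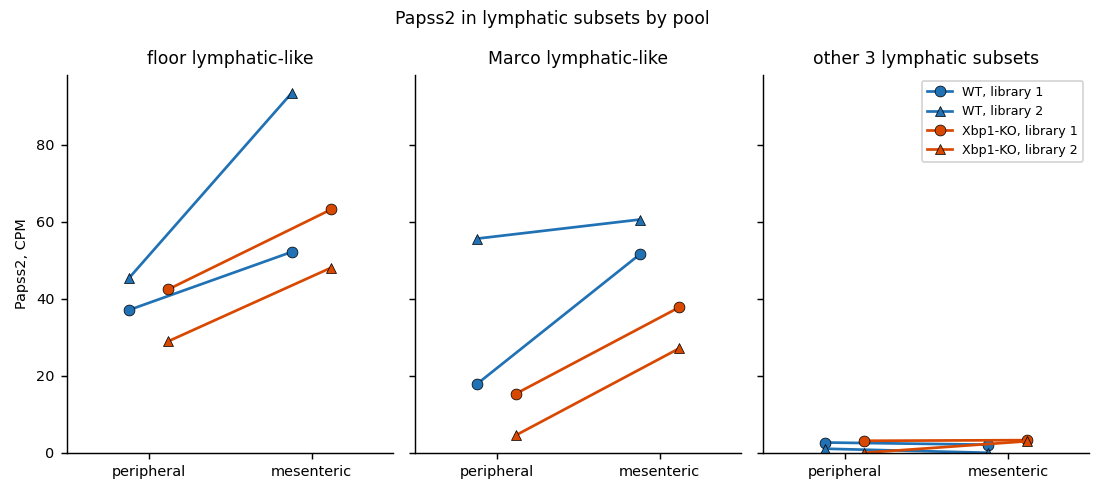
Papss2 level (CPM, vertical axis) in floor-like, Marco-like and the other 3 lymphatic subsets in peripheral and mesenteric nodes, with lines joining the pools of 1 genotype and library. All 4 lines rise in floor-like and Marco-like cells, and the other 3 subsets stay at 3.28 CPM or below.

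The make-up of the lymphatic sums was set beside this. Floor-like cells made up 35.5% and 28.1% of lymphatic cells in WT and 33.9% and 42.3% in Xbp1-KO mesenteric pools, against 33.2% and 24.1%, and 35.5% and 33.4%, in peripheral ones, so their share was higher in mesenteric pools in 3 of 4 pairs. The other 3 subsets, with few Papss2 UMIs, had the lower share in mesenteric pools in 4 of 4 pairs: 46.4% and 62.5% in WT and 38.7% and 39.1% in Xbp1-KO, against 52.0% and 66.4%, and 47.4% and 55.9%, in peripheral ones. Marco-like cells had the higher share in mesenteric pools in 3 of 4 pairs. The make-up of the sums thus moved with the Papss2 difference, and how much of it goes with these shares was not tested. Within floor-like cells alone, a comparison added after seeing the data, Papss2 was at 52.2 and 93.6 CPM in WT and 63.2 and 48.1 in Xbp1-KO mesenteric pools and at 37.1 and 45.4, and 42.5 and 29.0, in peripheral pools. It passed at 0.69 ± 0.21 log2 (1.61-fold, adjusted p = 0.0301, edgeR; 14.3% of all genes called), so it was present within that subset. In Marco-like cells it was 1.13 ± 0.42 (adjusted p = 0.119, 5.89% of all genes called) on 1 to 27 UMIs per pool. Of the 14 genes of the dissociation-response list 1 was higher and 5 were lower in mesenteric lymphatic sums, with a median of −0.35, and within floor-like cells 4 were higher and 3 lower, with a median of −0.25. Their part in either result was not tested.

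Other blood cells gave −0.08 ± 0.17 for Papss2 in the same contrast and high endothelial-like cells −0.13 ± 0.36. The difference between the lymphatic and the other blood effect was 1.01 ± 0.28 (adjusted p = 0.106, with 0.731% of all genes called), and 1.06 ± 0.25 with the pool as a block (adjusted p = 0.00301). No other member passed between tissues in any class. The background was 1.05% of genes in other blood and 0.188% in high endothelial-like cells (0.135% and 0.0342% in WT alone), where 7 of the 10 members were counted well enough to be tested. Nans was higher in mesenteric lymphatic sums in 4 of 4 pairs at 0.35 ± 0.14 (adjusted p = 0.182), and Papss1 was lower in mesenteric other blood sums in 4 of 4 pairs at −0.18 ± 0.27 (adjusted p = 0.981). Apart from these and Papss2 in lymphatic cells, no member had 4 of 4 pairs one way, and the share over all genes was not counted. Of the 43 other pathway genes 38 were tested in lymphatic, 35 in other blood and 17 in high endothelial-like cells, and 0 of these passed between tissues (mean of genotypes).

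No member passed between Xbp1-KO and WT. Averaged over tissues, 0 of 7 tested members in high endothelial-like, 0 of 10 in other blood and 0 of 10 in lymphatic cells passed in edgeR, and 0% of all genes did in each class. At an unadjusted p under 0.05, 0 members passed in the 3 classes and 211, 229 and 648 of all genes did, and DESeq2 called 0 members in the first 2 classes and gave the members no adjusted p in lymphatic cells. With the library as a block 0, 8 and 98 genes of all were called and again 0 members. In simulated counts drawn from these means and library sizes, 25.6% of 2-fold and 78.7% of 4-fold changes were found in high endothelial-like cells, 65.7% and 98.9% in other blood cells and 76.8% and 98.0% in lymphatic cells. Of the genes called there, 11.0%, 3.05% and 9.95% were false in these classes.

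**Figure D5:**
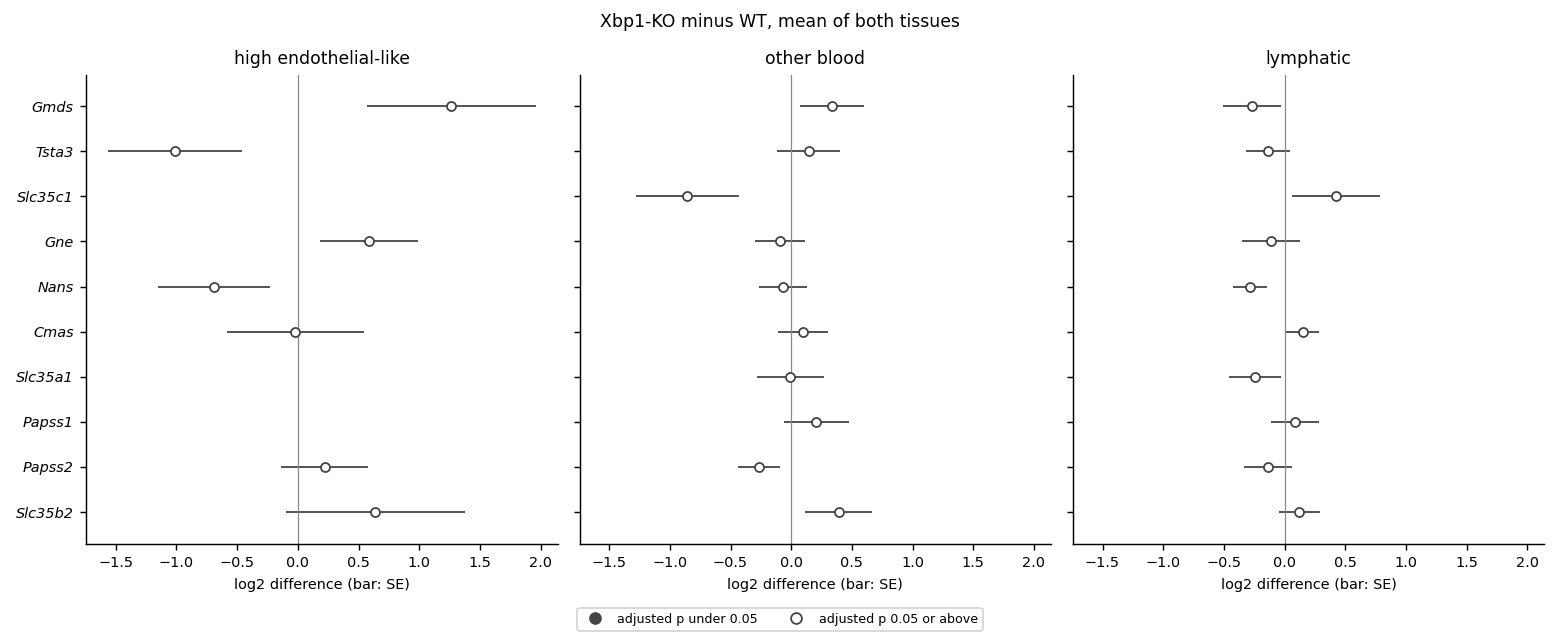
Difference between Xbp1-KO and WT on the log2 scale (horizontal axis, bars 1 SE) of each gene in the 3 classes, averaged over both tissues. Open points have an adjusted p of 0.05 or above, which is every point, and the bars are longest in high endothelial-like cells, where Slc35c1, Slc35a1 and Papss1 were too low to test.

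In high endothelial-like cells the largest estimates were those of the 2 GDP-fucose enzymes, in opposite directions. Gmds was 1.27 ± 0.70 log2 and Tsta3 −1.01 ± 0.55. The Gmds estimate rested on peripheral sums: mesenteric sums, with 15.5 and 37.4 CPM in WT and 23.5 and 27.6 in Xbp1-KO, gave an estimate near 0 with a Wald SE of 0.44 (0.76 in library 1 alone, −0.57 in library 2 alone). The peripheral sums held 0 and 1 UMIs in WT and 7 and 4 in Xbp1-KO. For Tsta3 the mesenteric difference was −0.15 ± 0.45, with 20.7 and 21.1 CPM in WT and 21.7 and 14.4 in Xbp1-KO. Mesenteric Gne was 0.24 ± 0.35, Nans −0.23 ± 0.36, Cmas −0.16 ± 0.41, Papss2 −0.32 ± 0.33 and Slc35b2 −0.56 ± 0.43. In mesenteric sums library 1 alone gave 0.24 for Tsta3, 0.41 for Gne, −0.18 for Nans, 0.09 for Cmas, 0.08 for Papss2 and −0.91 for Slc35b2. Library 2 alone gave −0.68, 0.09, −0.27, −0.38, −0.67 and −0.27 in the same order. An interval of 2 SE around the mean over tissues ran from −0.23 to 1.40 for Gne and −0.49 to 0.93 for Papss2. These means include peripheral sums of 9 to 37 cells, and 2 SE on 8 sums cannot exclude a 2-fold loss. Gne was 0.98 in library 1 alone and −0.63 in library 2 alone. For Slc35b2 the interval ran from −0.83 to 2.11, on WT peripheral sums of 0 and 1 UMIs, with 2.98 in library 1 alone and −0.03 in library 2 alone. In mesenteric sums it ran from −1.43 to 0.31 for Slc35b2, which includes a 2-fold loss. For Nans, −1.61 to 0.23 over both tissues, and Tsta3, −2.12 to 0.09, a 2-fold loss lay inside. Nans was −0.10 in library 1 alone and −3.99 in library 2 alone, where the Xbp1-KO peripheral sum held 0 UMIs. The dissociation-response list had a median of 0.39 in this contrast, and its part was not tested.

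In the larger classes the SEs were smaller. For Papss2, other blood cells gave −0.27 ± 0.17 over both tissues (−0.10 in library 1 alone, −0.42 in library 2 alone). Mesenteric sums held 57.6 and 55.0 CPM in WT and 45.5 and 30.8 in Xbp1-KO, without overlap, a difference of −0.54 ± 0.24 (unadjusted p = 0.0415, adjusted p = 1.0, edgeR; −0.30 in library 1 alone, −0.74 in library 2 alone), and peripheral sums gave 0.01 ± 0.24. In other blood cells the 14 dissociation-response genes were all above 0 in this contrast, with a median of 0.52 over both tissues and 1.01 in mesenteric sums. By edgeR 0 of them passed, and 8 and 10 had an unadjusted p under 0.05. Their summed level was 18265 and 24370 CPM in WT and 27223 and 52384 in Xbp1-KO mesenteric sums, the last being the sum with the lowest Papss2, and the Xbp1-KO sum of library 1 held the blood-cell list at 2654 CPM. The part of either in the Papss2 values was not tested. Papss2 was the 1 member in the 3 classes with an unadjusted p under 0.05 in either tissue. Slc35b2 gave 0.39 ± 0.28 in other blood cells, which was 0.0062 in library 1 alone and 1.04 in library 2 alone. The estimate was −0.86 ± 0.42 for Slc35c1, the carrier of GDP-fucose, whose UMIs numbered 3 to 19 per sum. In 4 of 4 pairs of these sums Slc35c1 had the lower value in Xbp1-KO, at 2.46 to 4.21 CPM against 3.23 to 6.97 in WT, groups that overlapped. In lymphatic cells the estimates ran from −0.28 ± 0.14 for Nans (adjusted p = 0.819, edgeR) to 0.42 ± 0.36 for Slc35c1 (0.48 in library 1 alone, and 2.84 in library 2 alone, where the WT mesenteric sum held 0 UMIs). For Nans the Xbp1-KO value was the lower one in 4 of 4 lymphatic pairs (26.8 to 34.7 CPM against 30.6 to 41.0 in WT) and in 4 of 4 high endothelial-like pairs (0 to 44.4 against 30.8 to 58.6). The sum at 0 allows up to 51.9 CPM. Apart from these and Slc35c1 in other blood cells, no member had 4 of 4 pairs one way in any class. They were picked by scanning all 10 members, and the share over all genes was not counted. No member passed in either tissue alone, or in the difference of the genotype effect between tissues, in any class, and the highest share of all genes called in these was 0.0375%, in mesenteric lymphatic sums. Of the other pathway genes and of the enzymes that use the donors that could be tested, 0 passed in the genotype comparison in any of the 3 classes, averaged over tissues.

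Over the 28 sums of a subset and a library, the genes whose log2(CPM + 1) followed each member most closely were listed from 8297 genes as a description, since these sums share libraries and depth. Papss2 ran with Pcdh17 (Pearson r = 0.92), Plekha2 (0.92) and Csf2rb (0.91), Cmas with Parva (0.88), Cul7 (0.86) and Cars2 (0.86), and Gne with C1qtnf1 (0.86), Imp3 (0.83) and Lcp1 (0.83). Next came Papss1 with Ube2l6 (0.84), Slc35b2 with Laptm4b (0.82) and Tsta3 with Armcx5 (0.82). Slc35a1 with Tiprl (0.73), Gmds with Golph3 (0.75) and Nans with Tpd52l2 (0.66) were looser, and Slc35c1, with a median of 6 UMIs per sum, is too sparse for such a list. Among the members the highest values, 0.63 for Papss2 with Gne and 0.58 for Slc35b2 with Cmas, joined genes of different donors, and the lowest was −0.62 for Papss2 with Cmas. Within PAPS supply, Papss2 and Papss1 had −0.06, Papss2 and Slc35b2 −0.06 and Papss1 and Slc35b2 −0.08.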

How the data were processed

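Both deposited matrices hold raw UMI counts per gene and barcode, not normalized, which the authors deposited. Cell Ranger is given as 6.0.1 in the file headers, and as 6.1, beside mm10, in the submitters' processing notes. The labels disagree on the 10x chemistry, and whether intronic reads were counted is not given in the sources used here. Gene identifiers were matched to GENCODE M21 (99.6% found).

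HTODemux (Seurat 5.3.0, quantile 0.99) gave 6786 and 2690 barcodes 1 hashtag in libraries 1 and 2. Cells with under 500 genes or over 10% mitochondrial UMIs were dropped, and scrublet within scanpy 1.11.5 removed 65 and 4 more. It marked 25.5% and 4.62% of barcodes with several tags, so doublets within a pool partly remain. Clusters (2000 variable genes without the members and the enzymes that use their products, 30 components, 15 neighbours, Leiden resolution 1) were named from marker lists. Rules added after clusters were seen were Prox1 in at least 25% of cells for lymphatic clusters and at least 2 markers among the 10 leading genes for high endothelial ones. A difference from the study's own cell types may come from these rebuilt names. The unnamed blood cluster (leading gene Atp1b1) and stromal, dividing and blood cells entered no class.

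Counts were added up by library, pool and class, to 57854 to 1106190 UMIs in high endothelial-like, 589430 to 2812188 in other blood and 421632 to 6548025 in lymphatic sums. edgeR 4.0.16 (TMM, filterByExpr, quasi-likelihood test, Benjamini-Hochberg over all genes, threshold 0.05) was fitted to group means of tissue and genotype, per class on 8 sums or over 3 classes on 24, and was tested on simulated data. The library is a shared run in the labels, so it (or the pool, over 3 classes) served as a block in a second fit: sums of 1 library deviated together at correlations of 0.140 to 0.383 in other blood, 0.0599 to 0.227 in lymphatic and −0.00758 to 0.172 in high endothelial-like cells. Each SE is the size of the estimate over the root of the test's F. It came within 25% of the Wald SE of the fit for 314 of 322 member values, and the Wald SE is given where it did not and the value is printed. Fits of 1 library alone have no residual degrees of freedom and give values without a test. Alternatives were DESeq2 1.42.0, its size factors in edgeR, no filter on low counts, sums thinned to the smallest, a ratio rule for hashtags, Leiden resolution 1.5 and leaving out each library. Intervals of counts are exact Poisson at 95%, and a count of 0 allows up to 3 counts per sum. Both cover counting error only.

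All 10 members are described. Of the further lists, up to 6 called pathway genes and up to 4 called enzymes with the largest differences could be named per comparison. Likeness names the 3 genes with the highest Pearson r over sums of at least 20000 UMIs. The members, lists and comparisons were chosen with earlier results of these data known.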

Additional observations from a re-analysis of the deposited data

Results flagged for a closer look

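Gmds differed in direction between the genotypes when high endothelial-like sums were set against lymphatic sums of the same pool. In WT it was lower in high endothelial-like cells in 4 of 4 pools, with a mean difference of −12.8 CPM, and in Xbp1-KO it was higher in 4 of 4 pools, with a mean difference of 16.1 CPM. That mean was carried by the peripheral pool of library 2, at 69.1 CPM on 4 UMIs in 9 cells against 20.6 in lymphatic cells, while the other 3 Xbp1-KO pools had 25.6 against 22.1, 23.5 against 13.9 and 27.6 against 24.6. These are levels per total UMIs. Under TMM scaling the WT difference was −0.55 ± 0.73 log2 over both tissues, and in mesenteric sums it turned to 0.43 ± 0.42 (0.10 in library 1 alone, 0.21 in library 2 alone). The difference between the genotypes in this contrast was not tested. The WT peripheral high endothelial-like sums held 0 and 1 Gmds UMIs and the Xbp1-KO ones 7 and 4, and the pair was found by scanning all 10 members.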

How the results depend on the processing

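Of 196 recomputed counts of called members and subset levels, 185 stayed within 1.5 times or 1 SD of the reported value. Subset levels of 1 library alone lie within 1 SD of the mean of 2 libraries whatever the data. They are among the 185 and say nothing on stability. In mesenteric sums only, chosen after seeing the data, the count for high endothelial-like against other blood WT went from 0 to 3, and those for lymphatic against other blood from 5 to 3 in each genotype. The first count was 1 with DESeq2 size factors, with the DESeq2 test, with the pool as a replicate block and at Leiden resolution 1.5. High endothelial-like against lymphatic WT gave 1 in place of 2 under the ratio rule and at Leiden 1.5, where Gne did not pass. Between tissues, lymphatic cells gave 0 in place of 1 when thinned, and in WT alone 1 in place of 0 with the library as a replicate block. The block changed no member's call between genotypes. Of 422 comparisons of single genes, 360 counted as unchanged. With both libraries this meant the same direction and call. For 1 library alone, which has no test, it meant a value within 1 SE, and an uncalled member could turn sign within that. Another 29 values of 1 library alone moved, 12 became past the threshold, 10 were no longer so, and 11, genotype estimates from both libraries, changed sign. In 1 library alone, 52 of 216 values between genotypes, 22 of 108 between tissues and 42 of 280 between classes had the other sign, and of those of called members 1 did, Nans in high endothelial-like against other blood cells over all groups (−1.07 in library 2, 0.67 in both). Cmas in high endothelial-like cells went to 0.010 (DESeq2), 0.024 (no filter) and 0.035 (block). In other blood cells Nans went to 0.025 and Slc35a1 to 0.078 under the ratio rule, and Slc35a1 to 0.083 at Leiden 1.5. Thinned sums gave −0.081 for Tsta3, 0.12 for Nans and −0.033 for Papss1 in other blood cells, and −0.032 for Papss1 and −0.026 for Slc35b2 in lymphatic cells. The cause of these shifts was not tested. Thinning left no member past the filter in high endothelial-like cells or over 3 classes. Over all genes, the lymphatic tissue comparison called 530 (1386 with the block, 877 unfiltered, 353 by DESeq2, 200 thinned) and the other blood one 101 (427 with the block, 308 unfiltered, 52 thinned). The high endothelial-like one called 11 (22 with the block, 46 unfiltered). The lymphatic genotype comparison called 0 (98 with the block, 70 unfiltered, 11 by DESeq2) and the other blood one 0 (8, 30 and 3). By library, levels in the highest subset ranged most for Slc35a1, from 16.9 to 45.7 CPM. Peripheral high endothelial-like sums of 9 to 37 cells limit what can be detected there.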
